A study of Mus musculus with 4 samples.

Results

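The insulin-like growth factor (IGF) system was followed in the urogenital sinus (UGS) of male mouse embryos, the tissue from which the prostate develops. Its 10 genes were taken by symbol, without regard to their values, from the 25819 rows of an RNA-Seq table. They were the ligands *Igf1* and *Igf2*, the receptors *Igf1r* and *Igf2r*, and the binding proteins *Igfbp2*, *Igfbp3*, *Igfbp4*, *Igfbp5*, *Igfbp6* and *Igfbp7*. All 10 had a row, and the lowest value of any of them in any library was 7.11 FPKM. FPKM is a read number scaled to transcript length and to the mapped reads of the library, so levels can be set side by side between genes.

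Whole UGS were dissected at embryonic stages E16.5 and E18.5 from wild type embryos and from littermates of the genotype Tbx18GFP/GFP, in which a GFP knock-in disrupts both copies of *Tbx18*, a T-box transcription factor of urogenital mesenchyme. All embryos came from lines kept on a B6C3-F1 hybrid background. RNA of 3 embryos was pooled for each of the 4 libraries, 1 per genotype and stage. There were therefore no replicates, and no test, SD or p-value between genotypes or stages is given. Log2 ratios are given with a 95% counting interval, which covers the error of read sampling only and not the spread between embryos.

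IGF1 and IGF2 are secreted growth factors that act through the receptor tyrosine kinase IGF1R, while IGF2R carries IGF2 to the lysosome for degradation. The IGF binding proteins hold the ligands in the extracellular space, and proteases release the ligands by cutting the binding proteins. IGF1 is needed for normal growth of the prostate.

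The libraries held an estimated 29100000 to 64000000 mapped reads, and the E18.5 wild type library was the shallowest. That library also stood apart from the other 3. The log2 ratio of mutant to wild type at E18.5 followed the GC content of the transcript (Spearman's rho 0.44, 13012 genes), which it did not at E16.5 (0.02, 13478 genes). These correlations are across genes of the same libraries, which are not independent. The median log2 ratio of all genes was 0.29 at E18.5 against 0.01 at E16.5. E18.5 ratios are therefore also given relative to the all-gene median or with a lowess trend on length and GC subtracted, and the plot of genotype ratios shows all 3 forms for each member. The comparison of E18.5 mutant with E16.5 wild type leaves the E18.5 wild type library out, but its ratio also ran with GC content (rho -0.18, 13428 genes). The rho was -0.23 between the mutant stages and -0.50 between the wild type stages. *Tbx18* itself ranged from 2.50 to 3.47 FPKM over the libraries, and its row may include transcript of the disrupted gene, so it does not check the genotype labels. All 12 markers of UGS mesenchyme and all 12 of UGS epithelium had at least 1 FPKM in every library. In whole tissue, fewer cells of a type and less RNA per cell cannot be told apart.

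*Igf2* had the highest level of the 10 genes in all 4 libraries, and *Igf2r*, *Igf1r* and *Igfbp6* were the lowest 3 in that order in all 4. The sum over the 10 genes was 1412 FPKM in E16.5 wild type, 1415 in E16.5 mutant, 1441 in E18.5 wild type and 1400 in E18.5 mutant UGS. The sum was nearly level as deposited, but the 10 genes held 0.307%, 0.286%, 0.384% and 0.278% of the summed FPKM of these libraries, in that order. The part taken by each gene differed between libraries, most of all for *Igfbp2*, whose FPKM spanned 3.53-fold. The narrowest span was that of *Igf1r*, at 1.17-fold. *Igf1* and *Igfbp3* were close and changed places, with *Igfbp3* above *Igf1* in E16.5 wild type UGS and below it in the other 3 libraries. The plot of FPKM by library shows both.

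**Figure D1:**
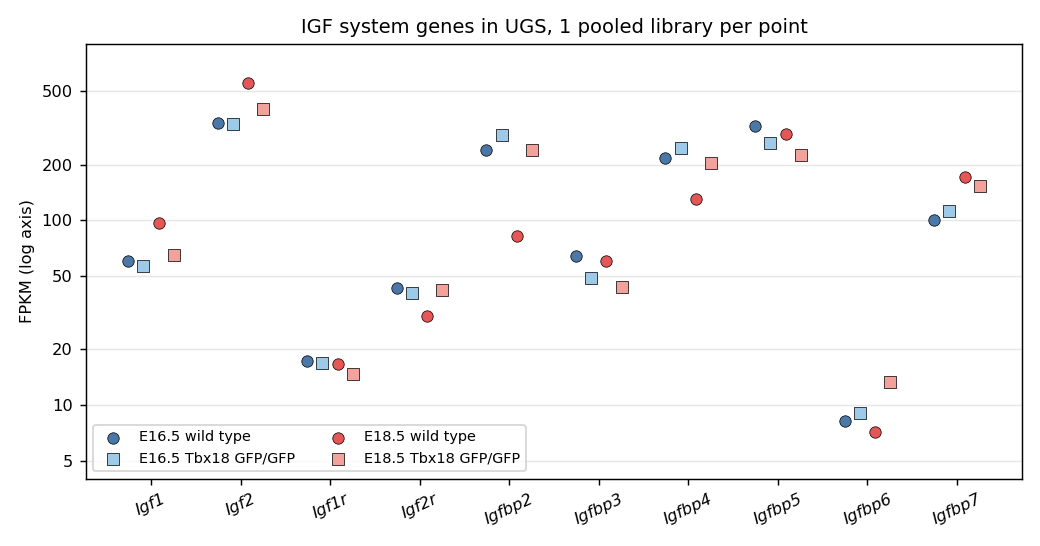
Level of each IGF system gene in FPKM (log axis) in the 4 libraries, with 1 pooled library per point, circles for wild type and squares for Tbx18GFP/GFP. *Igf2* is highest throughout, and *Igfbp2* in E18.5 wild type, at 82.4 FPKM, lies far below its level of 240.3 to 291 FPKM in the other 3 libraries.

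The ligand genes were nearly the same in both genotypes at E16.5 and were lower in the mutant at E18.5, when the wild type level was highest. *Igf2*, the main fetal ligand and a gene expressed from the paternal copy, lies on chromosome 7 from 149836673 to 149846940 in the positions of the deposited table. Its level was 336 FPKM in wild type UGS against 330.4 in the mutant at E16.5, and 553 against 399 at E18.5. The log2 ratio of mutant to wild type was -0.03 (-0.07 to 0.02) at E16.5, within counting error, and -0.47 (-0.52 to -0.42) at E18.5. *Igf1*, the ligand that takes over much of growth control after birth, lies on chromosome 10 from 87321801 to 87399792. It had 60.3 FPKM against 56.5 at E16.5, and 96.7 against 64.9 at E18.5, with log2 ratios of -0.09 (-0.19 to 0.00) and -0.58 (-0.68 to -0.47). Both ligands were thus lower in the mutant at E18.5 by less than 1.5-fold as deposited. Relative to the all-gene median the E18.5 log2 ratios were -0.76 for *Igf2* and -0.86 for *Igf1*, and with the trend subtracted they were -0.95 and -0.34.

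From E16.5 to E18.5 the ligands were higher by 1.65-fold for *Igf2* and 1.60-fold for *Igf1* in wild type UGS, and by 1.21-fold and 1.15-fold in mutant UGS. The stage ratio in wild type and the genotype ratio at E18.5 share the E18.5 wild type library. From E16.5 wild type to E18.5 mutant UGS the log2 ratios were 0.25 for *Igf2* and 0.11 for *Igf1*, so the large ligand differences were those that involved the E18.5 wild type library. The level of *Igf2* over that of *Igf1* was 5.58 in E16.5 wild type, 5.85 in E16.5 mutant, 5.72 in E18.5 wild type and 6.15 in E18.5 mutant UGS. These ratios are near level as long as the length and GC trend is not subtracted. With the trend subtracted, the log2 change of the ratio from wild type to mutant at E18.5 was -0.61 in place of 0.10, and that between the wild type stages was 0.87 in place of 0.04. The transcript of *Igf1* has a GC content of 38% and that of *Igf2* 55.8%, and both had the same direction in each comparison of genotype and of stage.

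*Igf2as*, an antisense gene with 2.55 to 4.02 FPKM, shares 1343 bases with the deposited interval of *Igf2*. The alignment used default options and no strand setting is stated, so reads in the shared bases cannot be told apart. *H19*, the maternally expressed noncoding neighbour of *Igf2*, stood at 802 FPKM in wild type UGS against 842 in the mutant at E16.5, and at 940.4 against 859 at E18.5. Its log2 ratio of mutant to wild type was 0.07 at E16.5 but -0.13 at E18.5, and the latter was -0.42 relative to the all-gene median and -0.78 with the trend subtracted.

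As deposited, the receptor genes differed by less than 1.5-fold in all 5 comparisons between libraries. *Igf1r*, the signalling receptor, lies on chromosome 7 from 75097143 to 75378553. Its level was 17.3 FPKM in wild type UGS against 16.9 in the mutant at E16.5, and 16.8 against 14.8 at E18.5. Its log2 ratio was -0.03 at E16.5, with a sign that turned when the trend was subtracted (0.03), and -0.18 (-0.23 to -0.13) at E18.5. The E18.5 value was -0.47 relative to the all-gene median, -0.61 with library sums made equal, which is past 1.5-fold, and -0.12 with the trend subtracted. *Igf2r*, the clearance receptor, also known as the mannose 6-phosphate receptor, lies on chromosome 17 from 12875272 to 12962572. It had 43.2 FPKM against 40.3 at E16.5, and 30.5 against 41.7 at E18.5. The E18.5 wild type value was the lowest of the 4, and the E18.5 log2 ratio was 0.45 (0.41 to 0.49), or 0.16 relative to the all-gene median and 0.37 with the trend subtracted. The level of *Igf2* over that of *Igf2r* was 18.1 in E18.5 wild type UGS and between 7.78 and 9.57 in the other 3 libraries.

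Among the binding proteins, *Igfbp3* and *Igfbp5* were lower in mutant than in wild type UGS at both stages, and *Igfbp2* and *Igfbp4* were higher at both. *Igfbp2* lies next to *Igfbp5* on chromosome 1. *Igfbp3*, *Igfbp5* and *Igfbp2* were chosen as examples after their values were seen, and no link between promoter and genotype ratio was tested. The promoter windows of these 3 genes are shown. They are from RefSeq on GRCm38.p6, run 5′ to 3′ along the gene from 250 bases before its start site to 50 bases after it, and have in capitals any GC box (GGGCGG on either strand) and any of 3 TATA strings, which were TATAAA, the variant TATATA, and a further variant, TTTAAA.
Igfbp3, chr11:7213874-7214173, minus strand: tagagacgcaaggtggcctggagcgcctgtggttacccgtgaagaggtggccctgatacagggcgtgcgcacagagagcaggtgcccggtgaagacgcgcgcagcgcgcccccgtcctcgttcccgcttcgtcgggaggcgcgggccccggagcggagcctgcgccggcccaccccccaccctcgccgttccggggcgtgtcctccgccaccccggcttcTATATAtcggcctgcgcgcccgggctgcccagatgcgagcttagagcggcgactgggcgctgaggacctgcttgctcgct
Igfbp5, chr1:72874816-72875115, minus strand: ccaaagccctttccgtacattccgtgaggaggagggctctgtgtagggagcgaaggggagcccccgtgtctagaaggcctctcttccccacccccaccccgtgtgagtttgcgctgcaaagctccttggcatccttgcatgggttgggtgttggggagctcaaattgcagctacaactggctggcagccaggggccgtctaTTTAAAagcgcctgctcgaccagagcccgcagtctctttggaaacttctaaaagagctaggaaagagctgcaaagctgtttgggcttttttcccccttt
Igfbp2, chr1:72824230-72824529, plus strand: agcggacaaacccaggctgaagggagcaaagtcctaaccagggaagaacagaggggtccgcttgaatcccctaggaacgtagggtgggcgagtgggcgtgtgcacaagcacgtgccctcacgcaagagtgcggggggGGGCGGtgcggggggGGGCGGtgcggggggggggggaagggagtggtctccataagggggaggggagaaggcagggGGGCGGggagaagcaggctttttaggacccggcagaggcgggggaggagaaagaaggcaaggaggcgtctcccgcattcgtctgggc

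The *Igfbp3* window held TATATA starting 30 bases before the start site, the *Igfbp5* window held TTTAAA starting 49 bases before it, and neither held a GC box. The *Igfbp2* window held 3 GC boxes, at 113, 98 and 37 bases before the start, and no TATA string. Of 32851 mouse promoter windows of the same length, 5.67% held the string found in *Igfbp3*, 13.2% that found in *Igfbp5* and 35.7% a GC box, and 22% held any of the 3 TATA strings without a GC box. TATAAA, found in 13.6% of windows, started 28 bases before the start site of *Igfbp4*. In *Igfbp6* its match, 148 bases before the start site, was on the opposite strand and reads TTTATA along the gene. Both genes were higher in the mutant at E18.5 as deposited. *Igfbp7* had 4 GC boxes, *Igf2r* had 3 and *Igf1r* had 2, and GC boxes were also found in 2 of the 4 windows of *Igf2*. As deposited, GC boxes were thus found both in members that were higher and in members that were lower in the mutant at E18.5. The 3 TATA strings as a set were also found in both. TATATA was found only in *Igfbp3* and TTTAAA only in *Igfbp5*, and a string in a single member cannot be in both directions. TATAAA was found only in *Igfbp4* and *Igfbp6*, both higher as deposited, but the ratio of *Igfbp6* was -0.078 with the trend subtracted. No link between a string and a direction was tested. The strings were chosen after the sequences were seen and can overlap one another. The 10 genes had 14 windows in all, since *Igf2* has 4 and *Igfbp2* has another, and none of the 14 held GGTGTGA, a T-box half-site, which 3.98% of all windows held. A match is a string of letters and not a known binding site.

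*Igfbp3*, the main IGF carrier of adult blood, lies on chromosome 11 from 7106089 to 7113926. Its level was 63.7 FPKM in wild type UGS against 48.4 in the mutant at E16.5, and 60.2 against 43.3 at E18.5. Both wild type values were above both mutant values. The log2 ratio was -0.40 (-0.45 to -0.34) at E16.5 and -0.48 (-0.54 to -0.41) at E18.5, and with the trend subtracted it was -0.43 and -0.97. *Igfbp5*, a binding protein that also attaches to extracellular matrix, lies on chromosome 1 from 72904639 to 72921439. It had 325 FPKM against 262 at E16.5, and 293 against 225 at E18.5. Again both wild type values were above both mutant values, and its log2 ratios were -0.31 (-0.33 to -0.30) and -0.38 (-0.40 to -0.37), or -0.29 and -0.53 with the trend subtracted.

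Both genes were lower in the mutant at each stage under every scaling tried, and by less than 1.5-fold as deposited. They were the 2 of the 10 members with both wild type values above both mutant values, an order that 11% of 15023 genes had. With the E18.5 wild type library left out, E18.5 mutant was below E16.5 wild type UGS by 1.47-fold for *Igfbp3* and 1.45-fold for *Igfbp5*. At E16.5, 5.17% of genes above the FPKM minimum had a log2 ratio at least as far from 0 in the same direction as *Igfbp3*, and 7.25% as *Igfbp5*. The level of *Igfbp5* over that of *Igfbp3* was 5.10, 5.40, 4.86 and 5.18 in E16.5 wild type, E16.5 mutant, E18.5 wild type and E18.5 mutant UGS. With the trend subtracted, the log2 change of this ratio was 0.44 between genotypes at E18.5, in place of 0.09, and -0.36 between the wild type stages, in place of -0.07.

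*Igfbp2*, a binding protein prominent in fetal tissues, lies on chromosome 1 from 72871078 to 72899048. Its level was 240.3 FPKM in wild type UGS against 291 in the mutant at E16.5, and 82.4 against 241 at E18.5. The E18.5 wild type value stood alone, and the other 3 lay within 1.21-fold of each other. The log2 ratio was 0.28 (0.24 to 0.31) at E16.5 and 1.55 (1.48 to 1.61) at E18.5, a 2.92-fold difference. Its transcript is the richest in GC of the 10, at 62.1%, and the E18.5 log2 ratio was 1.26 relative to the all-gene median and 0.49 with the trend subtracted. From E16.5 wild type to E18.5 mutant UGS its log2 ratio was 0.00.

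*Igfbp4*, which holds IGF until the protease PAPP-A cuts it, lies on chromosome 11 from 98902574 to 98913960. It had 218 FPKM against 248 at E16.5, and 130.4 against 204 at E18.5, with log2 ratios of 0.19 (0.14 to 0.23) and 0.65 (0.57 to 0.72). Its pattern was that of *Igfbp2* in a weaker form, lowest in E18.5 wild type and highest in E16.5 mutant UGS. Relative to the all-gene median its E18.5 log2 ratio was 0.36, and with the trend subtracted 0.14.

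*Igfbp6*, which prefers IGF2 to IGF1, lies on chromosome 15 from 101974617 to 101979943 and had the lowest levels. It had 8.16 and 9.03 FPKM at E16.5, a difference within counting error, and 7.11 and 13.3 FPKM at E18.5. Its E18.5 log2 ratio of 0.91 (0.70 to 1.12) turned to -0.078 with the trend subtracted, so its direction at E18.5 depended on the scaling. In mutant UGS it was 1.48-fold higher at E18.5 than at E16.5, with the same sign under every scaling tried.

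*Igfbp7*, a binding protein of low IGF affinity found around blood vessels, lies on chromosome 5 from 77778265 to 77837070. Its level was 99.9 FPKM in wild type UGS against 113 in the mutant at E16.5, and 171 against 153 at E18.5. Both E18.5 values were above both E16.5 values. The log2 ratio of E18.5 to E16.5 was 0.77 (0.72 to 0.82) in wild type and 0.44 (0.39 to 0.48) in mutant UGS, and the log2 ratio of mutant to wild type was 0.18 at E16.5 but -0.16 at E18.5. The E18.5 value was -0.45 relative to the all-gene median and -1.06 with the trend subtracted. Its GC content of 58.8% put it in the same bin of 10 by GC content as *Igfbp2* and *Igfbp6*, and that bin had a median log2 ratio of -0.93 between the wild type stages, so its direction there was opposite to that of its bin. The level of *Igfbp2* over that of *Igfbp7* was 2.40 in E16.5 wild type and 0.482 in E18.5 wild type UGS, a log2 change of -2.32, or -2.14 with the trend subtracted.

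**Figure D2:**
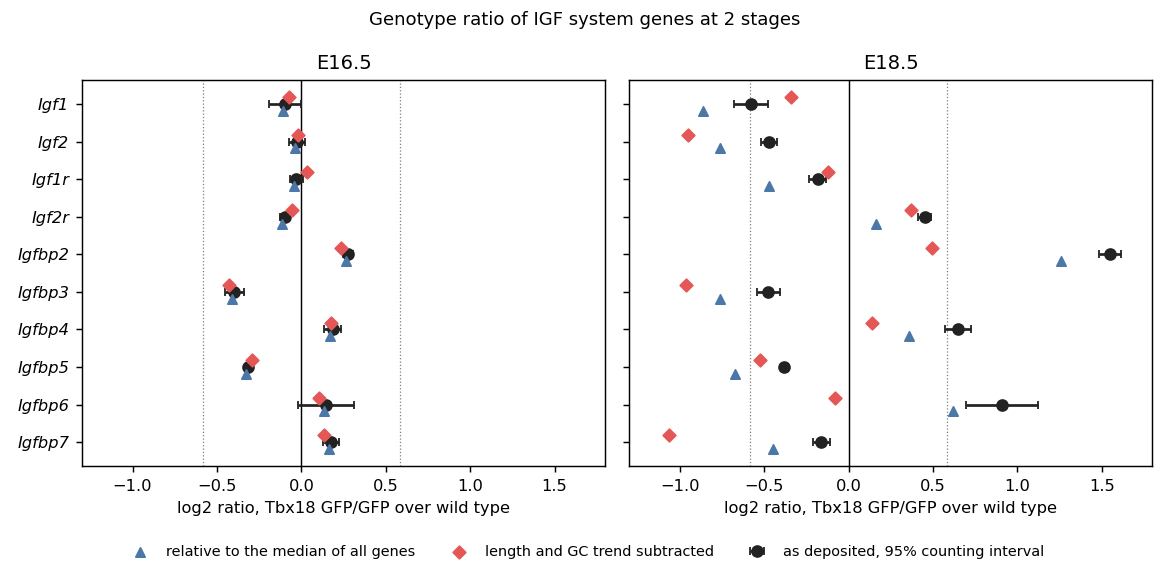
Log2 ratio of Tbx18GFP/GFP to wild type for each IGF system gene at E16.5 (left) and E18.5 (right), as deposited with the 95% counting interval (circles), relative to the all-gene median (triangles) and with the length and GC trend subtracted (diamonds). Dotted lines mark 1.5-fold. *Igfbp3* and *Igfbp5* lie left of 0 in both panels in all 3 forms, and the E18.5 value of *Igfbp6* crosses 0 when the trend is subtracted.

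At E16.5 none of the 10 genes differed between genotypes by 1.5-fold, where 4.15% of 14761 genes did, counting those that reached 1 FPKM in 1 of the libraries or both. The members' log2 ratios ran from -0.40 for *Igfbp3* to 0.28 for *Igfbp2*, with a median of -0.03 against 0.01 for all genes. At E18.5, 3 of the 10 were at least 1.5-fold higher in the mutant, *Igfbp2*, *Igfbp4* and *Igfbp6*, where 33.2% of 14733 genes were. None was 1.5-fold lower, where 7.6% of genes were. The share of members was thus near that of all genes, and their median of -0.17 lay below the 0.29 of all genes. Past 2-fold higher there was 1 gene, *Igfbp2*, where 15.1% of genes were. Relative to the all-gene median, 6 of the 10 passed 1.5-fold, with *Igfbp2* and *Igfbp6* higher, where 19.7% of genes were, and *Igf1*, *Igf2*, *Igfbp3* and *Igfbp5* lower, where 16% were. With the trend subtracted, *Igf2*, *Igfbp3* and *Igfbp7* passed, all lower, where 14.7% of 13820 genes with a known length and GC content were lower and 13.1% higher.

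**Figure D3:**
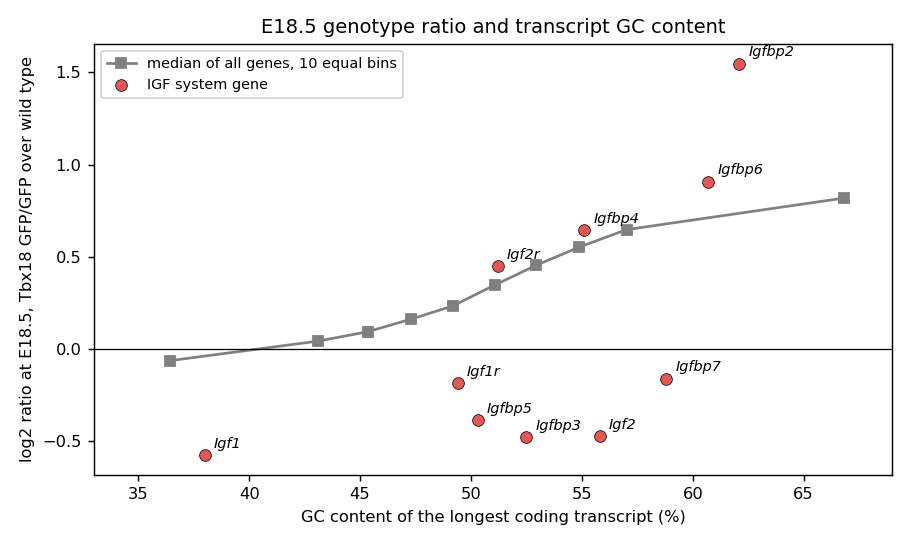
Log2 ratio of Tbx18GFP/GFP to wild type at E18.5 against the GC content (%) of the longest coding transcript, with red points for the 10 IGF system genes and grey squares for the median of all genes in 10 bins of equal number. The grey line goes from -0.06 to 0.82, and *Igfbp2*, at 62.1% GC, *Igfbp4*, *Igfbp6* and *Igf2r* lie above it. *Igf1*, *Igf2*, *Igf1r*, *Igfbp3*, *Igfbp5* and *Igfbp7* lie below it.

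Between the wild type stages, *Igf1*, *Igf2* and *Igfbp7* were at least 1.5-fold higher at E18.5, where 6.8% of 14807 genes were. *Igfbp2* and *Igfbp4* were at least 1.5-fold lower, with log2 ratios of -1.54 and -0.74, where 35.9% of genes were. Subtracting the trend gave -0.41 and -0.13, both under 1.5-fold. The 3 higher genes kept their direction and stayed past 1.5-fold relative to the all-gene median, at 1.01, 1.05 and 1.10 on the log2 scale. With the trend subtracted the values were 0.46, 1.33 and 1.73, of which that of *Igf1* was under 1.5-fold. *Igfbp6* passed in its place, at 0.85, so that 3 of the 10 were higher, where 14.1% of 13890 genes were. *Igf1r*, *Igfbp3*, *Igfbp5* and *Igfbp6* were lower by at most 0.20 on the log2 scale as deposited, and higher under each other scaling, so no direction can be given for them.

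Between the mutant stages none of the 10 genes differed by 1.5-fold, where 4.68% of 14713 genes did. The largest log2 ratios were 0.56 for *Igfbp6* and 0.44 for *Igfbp7*, and the lowest was -0.28, for *Igfbp4*. All 10 kept their sign under every scaling tried. From E16.5 wild type to E18.5 mutant UGS, which differ in both stage and genotype, *Igfbp6* and *Igfbp7* were at least 1.5-fold higher, where 3.06% of 14766 genes were, with log2 ratios of 0.71 and 0.61. With library sums made equal neither passed and *Igfbp3* and *Igfbp5* were past 1.5-fold lower, at -0.69 and -0.66, as were 837 genes in all.

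The makeup of the binding proteins differed between genotypes at both stages. *Igfbp5* had the highest level in both wild type libraries and *Igfbp2* in both mutant libraries. *Igfbp5* held 34.0% of the summed binding protein FPKM in E16.5 wild type and 39.4% in E18.5 wild type UGS, against 27.0% and 25.5% in the mutants. *Igfbp2* held 25.2% and 11.1% in wild type, against 30.0% and 27.4% in mutant UGS. The level of *Igfbp2* over that of *Igfbp5* was 0.739 in wild type and 1.11 in mutant UGS at E16.5, a log2 change of 0.59, or 0.53 with the trend subtracted. At E18.5 it was 0.281 and 1.07, a log2 change of 1.93, or 1.02 with the trend subtracted. From E16.5 wild type to E18.5 mutant UGS, which differ in both stage and genotype, the log2 change was 0.54. The direction was thus also found without the E18.5 wild type library, but this value and that at E16.5 share the E16.5 wild type library. This pair of genes was chosen after its values were seen. A ratio of genes within a library does not depend on the scaling of the library as a whole.

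**Figure D4:**
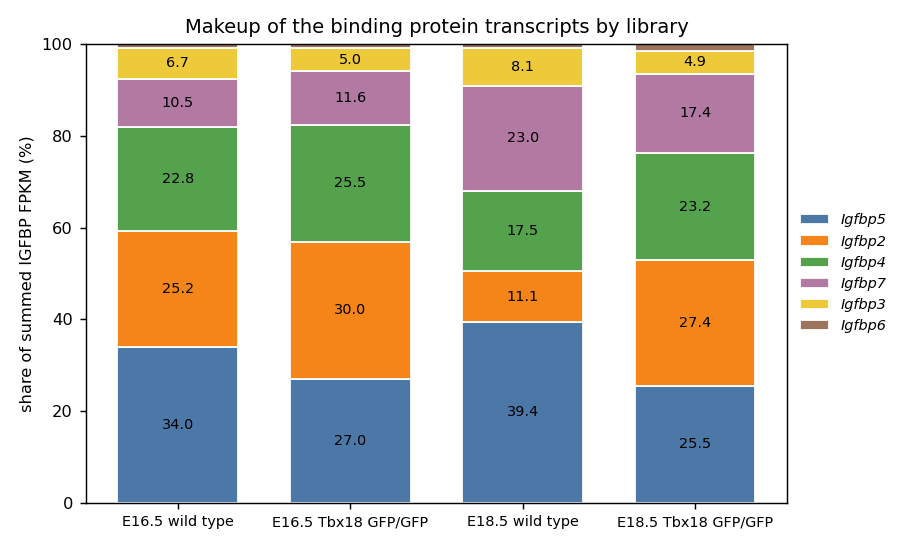
Share (%) of the summed FPKM of *Igfbp2* to *Igfbp7* held by each gene, with 1 stacked bar per library from 0 to 100%. The *Igfbp5* share is 34.0% and 39.4% in the wild type bars and 27.0% and 25.5% in the Tbx18GFP/GFP bars, and the *Igfbp2* share is smallest, at 11.1%, in E18.5 wild type.

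The summed FPKM of the 6 binding protein genes over that of both ligand genes was 2.41 in E16.5 wild type, 2.51 in E16.5 mutant, 1.14 in E18.5 wild type and 1.89 in E18.5 mutant UGS. The E18.5 wild type library was again the lowest, with both a higher ligand sum and a lower binding protein sum than the others. These sums and the shares above are not corrected for GC content. Only *Igfbp2* spanned at least 2-fold over the 4 libraries. Among 8620 other genes with at least 5 FPKM in all 4 libraries, those with the most similar pattern to *Igfbp2* were *Gm5786*, *Emid1* and *Nme3*, with Euclidean distances of 0.0871, 0.0916 and 0.0954 on the centred log2 scale over 4 libraries. *Emid1* had 13.7, 17.1, 5.09 and 14.6 FPKM in E16.5 wild type, E16.5 mutant, E18.5 wild type and E18.5 mutant UGS. *Gm5786*, *Emid1* and *Nme3* were each lowest in E18.5 wild type UGS, and the match used FPKM not corrected for GC content.

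Markers of other tissues differed between the same libraries. All 10 smooth muscle markers were lower in the mutant at E16.5, with summed levels of 1183 FPKM in wild type and 630.4 FPKM in mutant UGS. All 12 skeletal muscle markers were at least 1.5-fold lower in the mutant at E16.5, with sums of 719 and 299.7 FPKM. At E18.5 the skeletal muscle sum was 355 FPKM in wild type and 749 FPKM in mutant UGS, although 8 of the 12 markers were lower in the mutant. At E18.5 the smooth muscle sum was 1368 FPKM in wild type and 3695 FPKM in mutant UGS, with 9 of the 10 markers higher in the mutant. All 10 endothelial markers were higher in the mutant at E16.5, by less than 1.5-fold each, with sums of 145 and 167 FPKM. At E18.5 the endothelial sums were 134 and 158 FPKM, with 7 of the 10 markers higher in the mutant and 3 lower. Of 8 hepatocyte markers that reached 1 FPKM in an E16.5 library, 7 were higher in the mutant by 1.5-fold or more, with sums over 12 genes of 14.3 and 32.2 FPKM, and *Alb*, which encodes albumin, had 1.01 and 7.13 FPKM. At E18.5 the hepatocyte sums were 22.9 and 23.1 FPKM, with *Alb* at 2.92 and 0.626 FPKM. Of 5 hepatocyte markers that reached 1 FPKM in an E18.5 library, 4 were lower in the mutant. The other, *Trf*, was higher, with 10.4 and 17.0 FPKM. The summed mesenchymal markers ran from 3683 to 4640.1 FPKM and the cartilage ones from 40.9 to 67.4 FPKM over the 4 libraries. The epithelial sums in wild type and mutant UGS were 796 and 674 FPKM at E16.5, with 9 of 12 markers lower in the mutant. At E18.5 the epithelial sums were 751 and 897 FPKM, with 5 of 12 lower. The part of these tissues in the IGF system differences was not tested.

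The rest of the pathway was followed in 6 lists with 72 genes, of which 60 or 61 had at least 1 FPKM in either library of a comparison. At E16.5 none of 61 differed by 1.5-fold between genotypes. At E18.5, 16 of 60 (26.7%) were at least 1.5-fold higher in the mutant, against the 33.2% of all genes, and 3 lower (5%), against 7.6%. The median log2 ratio was 0.26 against 0.29 for all genes. Relative to the all-gene median 6 were higher and 9 lower, and with the trend subtracted 4 were higher and 7 lower. The counts of single lists that follow are as deposited and have the same shares of all genes behind them. Between the wild type stages 4 of 61 were higher (6.56%, against 6.8% of all genes) and 20 lower (32.8%, against 35.9%), with a median of -0.39 against -0.33 for all genes. Between the mutant stages 1 was higher, *Kazald1*, which encodes a secreted protein with an IGF binding protein domain, and none lower. From E16.5 wild type to E18.5 mutant UGS 2 were higher, *Htra1* and *Kazald1*, and 2 lower, *Insrr* and *Irs4*, of which the last pair was named after its values were seen. *Irs4* was under 1.5-fold relative to the all-gene median.

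Of the other ligands, receptors and binding proteins, 3 of 4 that reached 1 FPKM at E18.5 were at least 1.5-fold higher in the mutant and none lower. *Insr*, the insulin receptor, ranged from 9.03 to 9.26 FPKM over the 4 libraries. *Igfbp1* had at most 0.550 FPKM and *Igfals*, which encodes the partner of IGFBP3 in blood, at most 0.0824 FPKM. *Htra1*, a secreted serine protease with an IGF binding protein domain, had 10.1 FPKM against 13.0 at E16.5, and 7.64 against 17.7 at E18.5 in wild type and mutant UGS. Its E18.5 log2 ratio of 1.21 was 0.92 relative to the all-gene median and 0.51 with the trend subtracted. *Kazald1* had 2.64 FPKM against 3.19 at E16.5, and 2.33 against 5.14 at E18.5. Its E18.5 log2 ratio of 1.14 was 0.85 relative to the all-gene median and 0.21 with the trend subtracted. *Esm1* was the other gene of this list past 1.5-fold at E18.5, at 0.82 as deposited, 0.53 relative to the median and 0.61 with the trend subtracted, and was named after its value was seen.

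Of 11 proteases and protease inhibitors, 2 were at least 1.5-fold higher in the mutant at E18.5 and 1 lower. The lower gene was *Stc1*, whose product inhibits the protease PAPP-A, with 5.92 FPKM against 8.04 at E16.5, and 12.4 against 6.07 at E18.5. Its log2 ratio was 0.44 at E16.5 but -1.02 at E18.5, and -1.05 at E18.5 with the trend subtracted. The higher genes were *Ctsd* and *Plat*, which encode cathepsin D and tissue plasminogen activator, with log2 ratios of 0.89 and 0.72. Subtracting the trend gave 0.21 and 0.37, both under 1.5-fold. *Pappa*, which encodes PAPP-A itself, stayed between 2.36 and 2.58 FPKM. *Pappa2*, whose product cuts IGFBP3 and IGFBP5, had 5.58 FPKM against 7.04 at E16.5, and 8.76 against 6.27 at E18.5. *Mmp2*, a gelatinase, was at least 1.5-fold lower at E18.5 than at E16.5 in wild type UGS as deposited (log2 ratio -0.60), but the value was -0.27 relative to the all-gene median and 0.05 with the trend subtracted.

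Of 15 receptor adaptors and inhibitors, 4 were at least 1.5-fold higher in the mutant at E18.5 and none lower. They were *Irs2*, *Ptpn1*, *Ptpn11* and *Sh2b1*, with log2 ratios of 0.79, 0.70, 0.91 and 0.91. With the trend subtracted the values were 0.36, 0.19, 0.67 and 0.13, so that of *Ptpn11*, a phosphatase that promotes growth factor signalling, was the one still past 1.5-fold. *Irs1*, the other main adaptor of the receptor, had 10.4 FPKM against 9.49 at E16.5, and 8.43 against 8.27 at E18.5. *Irs2* had 6.10, 5.50, 2.62 and 4.52 FPKM in E16.5 wild type, E16.5 mutant, E18.5 wild type and E18.5 mutant UGS.

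Of 20 genes of PI3K, AKT and FOXO signalling, 5 were at least 1.5-fold higher in the mutant at E18.5 and none lower. *Eif4ebp1*, a repressor of translation that mTOR inactivates, had 28.6 FPKM against 27.2 at E16.5, and 15.04 against 38.9 at E18.5. Its E18.5 log2 ratio of 1.37 was 1.08 relative to the all-gene median and 1.03 with the trend subtracted. The log2 ratios of *Akt1*, *Foxo4*, *Pik3r2* and *Rheb* were 0.85, 0.82, 0.81 and 0.79, and with the trend subtracted they were 0.04, 0.25, -0.05 and 0.45. Of 4 genes of the growth hormone axis, *Stat5b* was higher, at 0.63 as deposited, but under 1.5-fold relative to the all-gene median (0.34) and with the trend subtracted (0.31).

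Of 6 genes around *Igf2* and its transcripts, 1 was at least 1.5-fold higher in the mutant at E18.5 and 2 were lower. *Plagl1*, an imprinted zinc finger transcription factor that acts on other imprinted genes, had 82.3 FPKM against 61.7 at E16.5, and 206 against 79.8 at E18.5 in wild type and mutant UGS. It was lower in the mutant at both stages, with log2 ratios of -0.42 and -1.36, and -1.41 at E18.5 with the trend subtracted. *Igf2bp2*, which encodes an RNA-binding protein that binds *Igf2* transcripts, had 32.3 FPKM against 32.7 at E16.5, and 52.4 against 28.0 at E18.5, with an E18.5 log2 ratio of -0.90, or -1.22 with the trend subtracted. Its relative *Igf2bp1* had 5.45 FPKM against 5.41 at E16.5, and 2.62 against 4.52 at E18.5, the other direction, with a log2 ratio of 0.79, or 0.50 relative to the all-gene median and 0.71 with the trend subtracted. *Igf2bp3* ranged from 10.3 to 13.4 FPKM over the 4 libraries.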

How the data were processed

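RNA-Seq libraries were made from whole UGS with a stranded mRNA kit and read single-end. The authors aligned the reads with Tophat (version 2.1.0), estimated expression with Cufflinks (version 2.2.1) and deposited FPKM, 1 column per library, and the submitters' notes also name CASAVA 1.8.2 and Trimmomatic 0.30. The genome build is not given in the sources used here, and the positions differ from GRCm38. The 10 members, the pathway lists and the marker lists were chosen with earlier results of these data known.

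Ratios of deposited FPKM were taken for 5 pairs of libraries and counted at 1.5-fold and 2-fold among genes that reached 1 FPKM in at least 1 of the pair. Medians of all genes used genes with at least 1 FPKM in both. Depth was estimated in each library from olfactory receptor genes, 12 to 22 of them, with the FPKM of 1 read. Counting intervals used the shortest coding transcript of each gene, which gives at least 230 reads for each member, and so are wide rather than narrow. Transcript length and GC content came from GENCODE transcripts for 93.7% of the 15023 rows with at least 1 FPKM, and lowess trends had a span of 0.3. Other scalings, pseudocounts of 0.1 and 1 and other filters were alternatives. Pathway genes were named if 1.5-fold different between genotypes at a stage or between stages of a genotype with at least 5 FPKM, or if the rule listed them by symbol, and the 3 genes most like each member that spanned 2-fold were named. The steps were tested on simulated data. Python 3.11.15, matplotlib 3.10.9, numpy 2.4.6, scipy 1.17.1, pandas 2.3.3 and statsmodels 0.14.6 were used.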

Additional observations from a re-analysis of the deposited data

Results flagged for a closer look

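*Igf2r*, the clearance receptor for IGF2, and *Igfbp7*, the binding protein of low IGF affinity, each differed between genotypes in opposite directions at the 2 stages. The log2 ratio of mutant to wild type was -0.10 at E16.5 but 0.45 at E18.5 for *Igf2r*. For *Igfbp7* the values were 0.18 and -0.16. As deposited, all 4 lay outside counting error, which leaves out the spread between embryos. No scaling tried turned any of these signs, although the E18.5 value of *Igf2r* was 0.028 with library sums made equal. Genes at least as far from 0 in the same direction as *Igf2r* were 21.3% at E16.5 and 40.9% at E18.5. For *Igfbp7* the shares were 12.4% and 21.9%, all of genes above the FPKM minimum. The difference between stages was not tested, since each stage had 1 library per genotype, and both E18.5 ratios rest on the E18.5 wild type library.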

How the results depend on the processing

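At E18.5 the number of members past 1.5-fold between genotypes was 3 as deposited, all higher in the mutant, where 33.2% of genes were higher and 7.6% lower. It was 6 with library sums made equal (1 higher and 5 lower), where 2184 genes in all were higher and 3219 lower. It was 6 centred on the all-gene median and 6 with upper quartile scaling (2 higher and 4 lower in each). In all, 2909 genes were higher and 2361 lower when centred, and 3068 and 2213 with upper quartile scaling. With the length and GC trend subtracted it was 3, all lower, where 1813 genes in all were higher and 2036 lower. The E18.5 log2 ratio of *Igfbp6* was -0.078 with that trend subtracted, the only change of sign, in any comparison or setting, of a member past 1.5-fold as deposited. Between the wild type stages the number was 5, against 3 with the trend subtracted (*Igf2*, *Igfbp6* and *Igfbp7*, all higher). Between the mutant stages it was 0, against 1 relative to the median, with upper quartile scaling and with the trend subtracted, each time *Igfbp6*. It was higher at E18.5, as were 513, 486 and 473 genes in all under these settings. Pseudocounts and FPKM filters changed no count of members. At E18.5 the share of all genes past 1.5-fold that was higher in the mutant was 81.4% as deposited and 40.4% to 58.1% under the other scalings. At E16.5 it was 34.6%, and 20.6% with library sums made equal. Between the wild type stages it was 15.9% higher at E18.5 as deposited and 40.3% to 52.9% under the other scalings. No paired analysis was possible because each genotype and stage had 1 library and no replicate numbers were shared. For the same reason no ratio has a replicate error, and genotype cannot be told apart from differences between pools.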
